A study of Mus musculus with 8 samples.

Results

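The 10 genes described here encode intracellular inhibitors of receptor tyrosine kinase signalling through Ras and ERK: the Sprouty genes Spry1, Spry2 and Spry4, the Spred genes Spred1, Spred2 and Spred3, and the dual-specificity phosphatase genes Dusp4, Dusp5, Dusp6 and Dusp7. They are a named subset of their families, taken by symbol from the 53465 genes of an RNA-seq count table of mouse heart ventricles at embryonic day 9.5 (E9.5). In 4 libraries the genotype was Nrg-1flox;Tie2-Cre (mutant), in which the gene for neuregulin-1 is deleted by a Cre recombinase that Tie2 regulatory sequences drive in endothelial cells, the endocardium included, and in blood cells of the same lineage. The 4 wild-type (WT) libraries served as the control, and the labels name no treatment. The sources used here do not say how many embryos went into a library, nor that libraries came from separate animals, so each p-value measures the spread between these libraries only. The question was which of these inhibitors differed when Nrg1 was deleted, and whether paralogs within a family differed from each other.

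Neuregulin-1 is made by the endocardium and binds ErbB receptors on the neighbouring myocardium, where receptor activation feeds into the Ras-ERK cascade. Genes for several inhibitors of that cascade are themselves switched on by ERK activity, which closes a negative feedback loop. Sprouty proteins act between the receptor and Raf, Spred proteins bring the Ras GTPase-activating protein neurofibromin to the membrane, and the Dusp proteins remove phosphate from activated MAP kinases, with Dusp4 and Dusp5 in the nucleus and Dusp6 and Dusp7 in the cytoplasm.

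Library totals ranged from 11852372 to 14360323 counts. Nrg1 counts were 61, 59, 71 and 72 in the mutant libraries and 156, 131, 121 and 173 in the WT libraries. The fitted log2 fold change of Nrg1 was -1.07 (SE 0.14, adjusted p = 0.00268, edgeR quasi-likelihood test with Benjamini-Hochberg adjustment), in the direction that the labels imply. The defining myocardial genes were present. The summed level of 12 cardiomyocyte markers was 38399 to 40414 CPM (counts scaled to library size) in WT and 35941 to 39662 in the mutant. Of the 12, 0 passed the test (8.62% of all genes tested did) and 2 had an unadjusted p under 0.05 in edgeR (25.0%). In DESeq2 2 passed (12.8% of all genes), and in edgeR without mutant replicate 1 3 passed (17.2%). Mutant replicate 1 stood apart. Hemoglobin genes took 6.26% of its counts, against 1.93% to 3.89% in the other mutant libraries and 0.671% to 0.799% in WT, and all 10 erythroid markers were higher in the mutant. The part of blood RNA in the results below was not tested, and each of the 10 genes is given with and without mutant replicate 1. In whole tissue, fewer cells of a type and less RNA per cell cannot be told apart.

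All 10 genes had enough counts to be tested, with 45 to 907 counts per library. Spry4, Spred1 and Spry2 were lower in the mutant, and the other 7 did not pass the threshold of an adjusted p of 0.05 in edgeR's test over 14451 genes. Of all genes tested, 3.5% were lower in the mutant by the same rule and 8.62% differed in either direction. The fitted log2 fold change was below 0 in 8 of the 10 and had a median of -0.30, against -0.0014 over all genes tested. In 4 of the 10 (Spry2, Spry4, Spred1 and Spred2) every mutant library was below every WT library, a separation that 9.45% of all genes tested showed. Without mutant replicate 1, 5 of the 10 passed the threshold, all of them lower (Spry2, Spry4, Spred1, Spred2 and Dusp6), where 7.89% of all genes tested were lower.

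**Figure D1:**
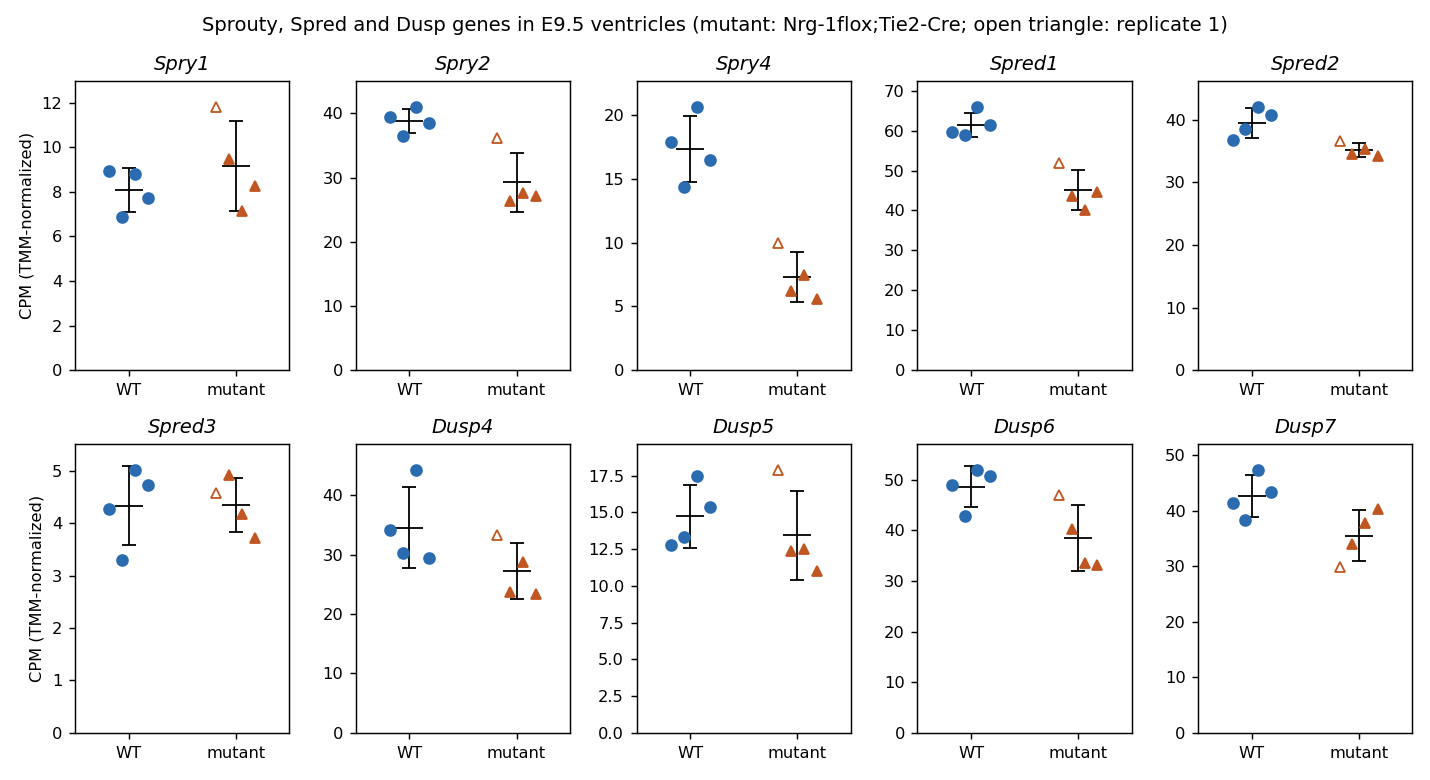
Level of each gene (TMM-normalized CPM, linear axis from 0) in the 4 WT libraries (circles) and the 4 Nrg-1flox;Tie2-Cre libraries (triangles, with replicate 1 open), with the mean and SD as bars. Spry2, Spry4, Spred1 and Spred2 show no overlap between genotypes, while the ranges of the other 6 genes overlap.

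Spry4 (chromosome 18, 38586247 to 38601415, minus strand, GRCm38) had the largest fitted difference of the 10. Its level was 17.9, 14.4, 20.6 and 16.5 CPM in WT replicates 1 to 4 and 10.005, 6.23, 7.48 and 5.60 CPM in mutant replicates 1 to 4. The highest mutant library, replicate 1, lay below the lowest WT library. The mean was 57.8% lower, at 7.33 ± 1.95 CPM against 17.3 ± 2.61 CPM (SD, n = 4 each). The log2 fold change was -1.24 (SE 0.18, 95% interval from -1.65 to -0.83, adjusted p = 0.00375, edgeR with Benjamini-Hochberg adjustment). Between 68 and 251 counts of Spry4 stood behind these values in each library. The call held in 8 of 8 fits that left out a library, with log2 fold changes from -1.42 to -1.14, and was -1.42 without mutant replicate 1.

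Spry2 (chromosome 14, 105891947 to 105896819, minus strand), the most abundant Sprouty gene in these ventricles, was also lower. Its level was 39.4, 36.4, 40.9 and 38.5 CPM in WT and 36.1, 26.3, 27.5 and 27.1 CPM in the mutant. Mutant replicate 1 lay just below the lowest WT library, and the other mutant libraries lay close together well below it. The mean was 24.6% lower, 29.3 ± 4.60 against 38.8 ± 1.90 CPM (SD, n = 4 each), with a log2 fold change of -0.41 (SE 0.10, 95% interval from -0.63 to -0.18, edgeR adjusted p = 0.0361). This call was fragile. It was lost in 7 of the 8 fits that left out a library, with edgeR adjusted p from 0.0666 to 0.106, and remained only when mutant replicate 1 was left out, where the log2 fold change was -0.52 (adjusted p = 0.000463). It was also lost with the level of Y-linked genes as a covariate, where the log2 fold change was -0.45 (edgeR adjusted p = 0.0568). The summed level of these Y-linked genes was 60.0, 21.9, 32.4 and 95.8 CPM in WT replicates 1 to 4. In mutant replicates 1 to 4 it was 109, 20.6, 113 and 112 CPM, above every WT library in all but replicate 2. Y-linked levels were thus uneven between genotypes, and the part of embryo sex was not tested.

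Spry1 (chromosome 3, 37639947 to 37644598, plus strand) did not pass the test and had the opposite sign. Its level was 8.94, 6.88, 8.79 and 7.71 CPM in WT and 11.8, 9.48, 7.12 and 8.24 CPM in the mutant, with overlapping ranges. The log2 fold change was 0.18 (SE 0.17, 95% interval from -0.19 to 0.55, edgeR adjusted p = 0.552), and it was 0.039 without mutant replicate 1, which had the highest Spry1 level of all libraries. Spry1 was the only one of the 10 whose deposited counts were not whole numbers, and the GENCODE M21 annotation places Gm42922 across 710 of its exon bases on the opposite strand. Gm42922 itself had from 1.74 to 15.52 counts per library, against 96 to 139 for Spry1. Opposite-strand genes also share exon bases with Spred3 (Ggn, 202 bases, 2 to 11 counts per library) and with Dusp5 (AC137853.2, 547 bases, with no row in the count table). Whether the counting used strand was not given in the sources used here, so reads of these 3 genes and their partners may not be told apart.

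Added up, Sprouty transcripts came to 64.2 ± 5.38 CPM in WT and 45.8 ± 8.12 CPM in the mutant, 28.8% lower, with 57.9 CPM in mutant replicate 1, just above the lowest WT library at 57.7 CPM, and 41.0 to 42.1 CPM in the other mutant libraries. Within the family, Spry4 made up 26.9% ± 1.82 of Sprouty counts in WT (25.0% to 29.3%) and 15.9% ± 1.95 in the mutant (13.7% to 17.7%), while Spry1 made up 12.6% ± 0.671 in WT (11.9% to 13.5%) and 19.99% ± 2.34 in the mutant (16.9% to 22.6%). The share of Spry2 was 60.5% ± 2.15 and 64.1% ± 1.94. These sums and shares are descriptions with no test of their own.

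The 250 bases upstream of the start are printed for Spry2 and Spred1, which passed the test, and for Spry1, a paralog that did not. For Dusp5, which did not pass either, 214 upstream bases are printed because they hold the only motif matches found upstream of a start in the search described below. Sequences are from RefSeq on GRCm38.p6, where all but Spry4 and Dusp4, 8 of the 10 genes, had a promoter sequence, and each runs 5′ to 3′ in the direction of transcription. The stretches of Spry2, Spry1 and Spred1 stop at the base before the RefSeq start, which for Spred1 lies 303 bases upstream of the GENCODE start given below, and that of Dusp5 stops before the GENCODE start, 36 bases upstream of the RefSeq start. Capitals mark matches to the CArG box, the DNA element bound by serum response factor.

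Spry2, chr14:105896820-105897069, minus strand: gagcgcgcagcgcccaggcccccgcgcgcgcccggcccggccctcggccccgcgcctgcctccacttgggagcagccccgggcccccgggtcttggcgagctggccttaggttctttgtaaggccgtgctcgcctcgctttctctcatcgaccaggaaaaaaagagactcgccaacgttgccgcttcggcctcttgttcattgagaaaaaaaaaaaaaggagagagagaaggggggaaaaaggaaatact

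Spry1, chr3:37639697-37639946, plus strand: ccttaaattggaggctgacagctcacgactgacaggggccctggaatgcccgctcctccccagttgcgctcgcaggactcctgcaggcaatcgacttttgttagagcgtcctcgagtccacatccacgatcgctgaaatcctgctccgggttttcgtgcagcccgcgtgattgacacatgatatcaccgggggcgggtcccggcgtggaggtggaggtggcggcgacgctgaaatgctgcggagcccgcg

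Spred1, chr2:117120821-117121070, plus strand: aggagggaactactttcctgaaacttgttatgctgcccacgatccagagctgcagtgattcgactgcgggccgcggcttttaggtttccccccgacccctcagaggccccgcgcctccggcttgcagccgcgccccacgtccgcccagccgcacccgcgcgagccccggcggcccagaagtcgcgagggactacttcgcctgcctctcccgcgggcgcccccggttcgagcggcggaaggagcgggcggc

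Dusp5, chr19:53528895-53529108, plus strand: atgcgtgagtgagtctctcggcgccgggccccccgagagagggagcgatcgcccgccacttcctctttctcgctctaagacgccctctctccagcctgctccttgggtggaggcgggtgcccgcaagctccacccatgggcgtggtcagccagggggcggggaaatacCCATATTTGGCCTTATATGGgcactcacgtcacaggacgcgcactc

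The GC content of these stretches was 62.4% for Spry2, 62.4% for Spry1, 70.8% for Spred1 and 65.0% for Dusp5, all above the median of 52.4% over 32851 RefSeq promoter sequences. In windows of 300 bases (250 before and 50 after the start), searched on both strands, the ETS core CCGGAA was in 1 of the 8 promoters, that of Spry2, where it lay 33 to 38 bases past the RefSeq start and so beyond the printed stretch. It was in 14.9% of all promoters. The CArG box was in 1 of the 8, Dusp5, which has adjacent matches ending 73 and 63 bases before its RefSeq start, and in 1.63% of all promoters. The cyclic AMP response element TGACGTCA was in 0 of the 8 and 1.79% of all, and the AP-1 element TGANTCA was in 0 of the 8 and 7.81% of all. A match describes letters in this window only.

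Among the Spred genes, Spred1 fell. Spred1 (chromosome 2, 117121374 to 117182279, plus strand) is the family member whose loss in people causes a syndrome like mild neurofibromatosis. Its level was 59.7, 58.8, 65.8 and 61.3 CPM in WT and 51.9, 43.7, 40.1 and 44.6 CPM in the mutant, with no overlap. The mean was 26.6% lower, 45.1 ± 4.95 against 61.4 ± 3.13 CPM (SD, n = 4 each). Spred1 had a log2 fold change of -0.45 (SE 0.081, 95% interval from -0.63 to -0.27, edgeR adjusted p = 0.00996). It was the best covered of the 10, with 541 to 907 counts per library, and its call held in 8 of 8 fits that left out a library (log2 fold changes from -0.52 to -0.39). Without mutant replicate 1 it was -0.52 (edgeR adjusted p = 0.000529).

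Spred2 (chromosome 11, 19924375 to 20024026, plus strand), the other broadly expressed Spred gene, had a smaller fitted difference. Its level was 36.7, 38.5, 42.0 and 40.7 CPM in WT and 36.6, 34.5, 35.3 and 34.2 CPM in the mutant. The groups did not overlap, but WT replicate 1 and mutant replicate 1 were almost level. The log2 fold change of -0.17 (SE 0.061, 95% interval from -0.30 to -0.031) did not pass over all genes tested (edgeR adjusted p = 0.125), and without mutant replicate 1 it was -0.19 and just passed (adjusted p = 0.0493). Spred3 (chromosome 7, 29158829 to 29170411, minus strand), which lacks the functional receptor-binding domain of its paralogs, was the least abundant of the 10, with 4.28, 3.30, 5.01 and 4.73 CPM in WT and 4.58, 4.92, 4.17 and 3.71 CPM in the mutant. The mutant range lay inside the WT range, and the log2 fold change was 0.0079 (SE 0.17, edgeR adjusted p = 0.984), and -0.015 without mutant replicate 1. The 95% interval ran from -0.38 to 0.40, which includes the value fitted for Spred2, and counts of Spred3 ran only from 45 to 70 per library.

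The summed Spred level was 105 ± 5.83 CPM in WT (101 to 113) and 84.6 ± 5.89 CPM in the mutant (79.6 to 93.1, of which mutant replicate 1 was the highest), 19.6% lower and without overlap. Spred1 made up 58.4% ± 0.742 of Spred counts in WT (57.4% to 59.3%) and 53.2% ± 2.28 in the mutant (50.4% to 55.7%). The share of Spred2 was 37.5% ± 0.837 in WT and 41.7% ± 2.08 in the mutant.

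None of the 4 Dusp genes passed edgeR's test with all 8 libraries, nor with DESeq2 or limma-voom, against 8.62% of all genes tested in edgeR. With sample quality weights, an alternative added after seeing the data, limma-voom called Dusp6 (-0.48, adjusted p = 0.00277). All 4 fitted values were below 0, and 2 of the 4, Dusp6 and Dusp7, had an unadjusted p under 0.05 in edgeR, as did 25.0% of all genes tested. Dusp6 (chromosome 10, 99263231 to 99267489, plus strand) encodes the cytoplasmic phosphatase with the strongest preference for ERK and is a common readout of ERK activity. Its level was 49.0, 42.8, 51.9 and 50.8 CPM in WT and 47.0, 40.3, 33.5 and 33.1 CPM in the mutant. Mutant replicate 1 lay among the WT libraries and the other mutant libraries below all of them. Dusp6 had a log2 fold change of -0.34 (SE 0.11, 95% interval from -0.60 to -0.083, edgeR adjusted p = 0.101), with means of 38.5 ± 6.54 and 48.6 ± 4.05 CPM. Without mutant replicate 1 it was -0.45 (adjusted p = 0.00719).

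Dusp7 (chromosome 9, 106368632 to 106375724, plus strand), the other cytoplasmic ERK phosphatase, had 41.4, 38.4, 47.3 and 43.3 CPM in WT and 29.9, 34.0, 37.8 and 40.3 CPM in the mutant. Only mutant replicate 4 reached into the WT range, and mutant replicate 1 was the lowest. For Dusp7 the log2 fold change was -0.26 (SE 0.0996, 95% interval from -0.48 to -0.039, edgeR adjusted p = 0.138) and moved to -0.19 without mutant replicate 1.

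Of the nuclear pair, Dusp4 (chromosome 8, 34807297 to 34819894, plus strand), which acts on ERK and on stress-activated MAP kinases, had 34.1, 30.3, 44.2 and 29.4 CPM in WT and 33.3, 23.7, 28.7 and 23.3 CPM in the mutant. WT replicate 3 was well above the rest and mutant replicate 1 lay within the WT range, the other mutant libraries below it. Its log2 fold change was -0.34 (SE 0.15, 95% interval from -0.68 to 0.0026, edgeR adjusted p = 0.204). It was -0.44 without mutant replicate 1 (adjusted p = 0.0524) and -0.20 without WT replicate 3. Dusp5 (chromosome 19, 53529109 to 53542431, plus strand), which acts on ERK and holds it in the nucleus, had 12.8, 13.3, 17.5 and 15.3 CPM in WT and 17.9, 12.4, 12.5 and 11.04 CPM in the mutant. Mutant replicate 1 was the highest of all 8 libraries, while the other mutant libraries lay below every WT library. For Dusp5 the log2 fold change was -0.13 (SE 0.16, 95% interval from -0.50 to 0.23, edgeR adjusted p = 0.668). It was -0.29 without mutant replicate 1 (edgeR adjusted p = 0.130) and -0.040 without WT replicate 3.

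The summed level of the 4 Dusp genes was 140 ± 15.0 CPM in WT (125 to 161) and 115 ± 9.13 CPM in the mutant (108 to 128), 18.3% lower, and mutant replicate 1 lay inside the WT range. The share of each of the 4 overlapped between genotypes. Dusp6 made up 34.7% ± 1.88 of the Dusp counts in WT and 33.4% ± 3.66 in the mutant, and Dusp4 24.4% ± 2.58 and 23.7% ± 2.42.

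**Figure D2:**
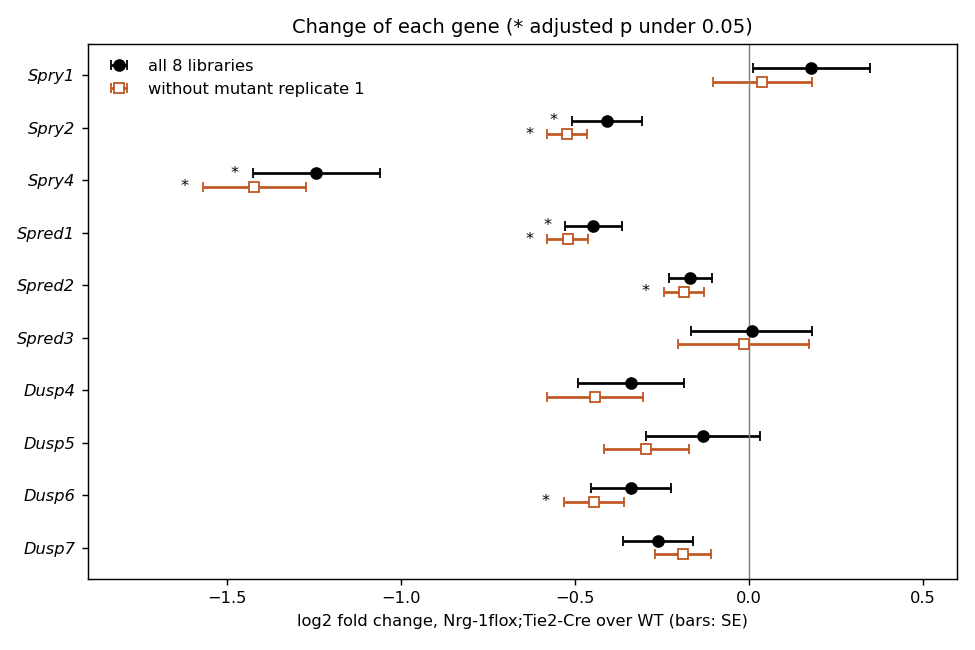
Log2 fold change of each gene, Nrg-1flox;Tie2-Cre over WT, with its SE from edgeR's quasi-likelihood fit, for all 8 libraries (filled circles) and without mutant replicate 1 (open squares); asterisks mark an adjusted p under 0.05. Spry4 lies farthest from 0 at -1.24, and Spred2 and Dusp6 pass only without that library.

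The same library tended to be extreme across the genes. Mutant replicate 1 was the highest mutant library for 8 of the 10 genes and the lowest for Dusp7, against 37.5% of all genes tested for which it was the highest. Among the WT libraries, replicate 3 was the highest for 9 of the 10 (25.0% of all genes tested) and replicate 2 the lowest for 7 (26.9%). Mutant replicate 4 was the lowest mutant library for 6 (20.1%). Without WT replicate 3, Spry4 (-1.15) and Spred1 (-0.41) passed in edgeR, where 4.05% of all genes tested were called. The log2 fold changes that did not pass were then -0.38 for Spry2, -0.14 for Spred2, 0.22 for Spry1 and 0.083 for Spred3. For the Dusp genes they were -0.31 (Dusp6), -0.21 (Dusp7), -0.20 (Dusp4) and -0.040 (Dusp5). Mutant replicate 1 also had the highest hemoglobin share, and the part of blood RNA in its levels of these genes was not tested.

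Whether a gene differed more between genotypes than its paralog was asked from the ratio of both genes within each library, which depends on library scaling only through the small prior count added before the logarithm. In 5 of the 12 pairs within families the ratio did not overlap between genotypes. Each of the 5 had an exact permutation p of 0.0286, the smallest that 4 against 4 libraries allow, and an adjusted p of 0.0686 over the 12 pairs. Pairs of a family share genes, so the 5 are not separate observations. How often ratios of other gene pairs separate in these libraries was not computed. No pair passed 0.05 after adjustment, and this design would have needed at least 7 of the 12 pairs at the smallest p to reach it. Spry1 against Spry4 had the largest shift. The log2 ratio was -1.08 ± 0.096 in WT and 0.33 ± 0.31 in the mutant (SD, n = 4 each), a shift of 1.41 or 2.66-fold. Spry2 against Spry4 shifted by 0.83 (from 1.17 ± 0.15 to 1.998 ± 0.19) and Spry1 against Spry2 by 0.58 (from -2.25 ± 0.11 to -1.67 ± 0.20). Spred1 against Spred2 shifted by -0.28 (from 0.64 ± 0.048 to 0.35 ± 0.13), and Spred1 against Spred3 by -0.46 (from 3.80 ± 0.21 to 3.33 ± 0.20). Without mutant replicate 1 the shifts of these 5 pairs, in the same order, were 1.44, 0.89, 0.55, -0.33 and -0.51. Each was again at an exact permutation p of 0.0286 (adjusted p = 0.0686). Ratios that do not overlap stay apart when a library is removed, so this p repeats the separation above and adds no support.

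For Spred2 against Spred3 the shift was -0.18 with overlapping ranges (exact permutation p = 0.286, adjusted p = 0.429), and -0.071 without WT replicate 2. All 6 Dusp pairs overlapped, with shifts from -0.19 (Dusp4 against Dusp5, exact permutation p = 0.171) to 0.21 (Dusp5 against Dusp6, exact permutation p = 0.143). Ratios to Dusp7 were the most spread in the mutant, with an SD of 0.40, 0.48 and 0.42 for Dusp4, Dusp5 and Dusp6 against 0.19, 0.11 and 0.053 in WT, and mutant replicate 1 was the highest library in each of these. Without it the shifts against Dusp7 were -0.25, -0.10 and -0.26 (exact permutation p = 0.171, 0.457 and 0.143).

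**Figure D3:**
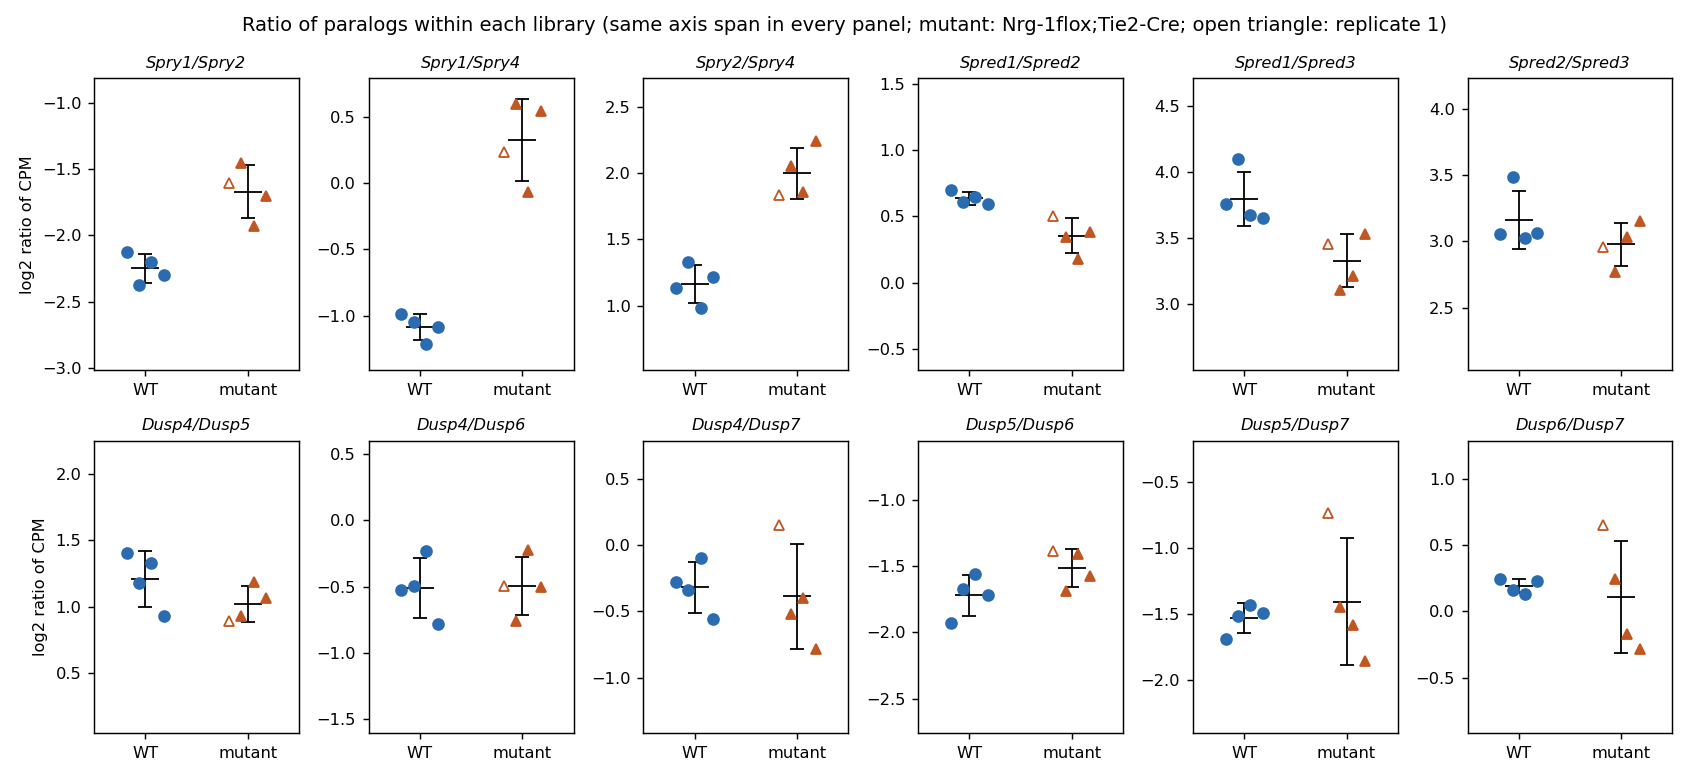
Log2 ratio of the CPM of paralogs in each library for the 12 pairs within the Spry, Spred and Dusp families (circles WT, triangles Nrg-1flox;Tie2-Cre with replicate 1 open, bars mean and SD); every panel spans the same number of log2 units. The pairs with Spry4 separate most, with 1.41 for Spry1/Spry4, and the Dusp pairs overlap.

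Per kilobase of merged exons, Spry2 had the highest level of the 10 in WT, at 18.6 ± 0.910 CPM per kb, above Dusp6 at 15.5 ± 1.29 with no overlap. Merged exons join those of all annotated transcripts, 1 for Spry2 and 4 each for Dusp6 and Dusp7. The order of the genes may therefore depend on this choice of length. Dusp6, Dusp7 (12.7 ± 1.12) and Dusp4 (12.6 ± 2.48) overlapped each with its neighbour. Spred1 (9.05 ± 0.461) and Spred2 (8.55 ± 0.503) followed and overlapped each other, then Dusp5 (5.96 ± 0.872), Spry4 (3.65 ± 0.549) and Spry1 (2.78 ± 0.334), the latter pair overlapping, and last Spred3 at 0.696 ± 0.121 CPM per kb. In the mutant, the order of the means was the same but for these neighbouring pairs. Spred1 (6.64 ± 0.730) stood below Spred2 (7.61 ± 0.236), and Spry4 (1.54 ± 0.409) below Spry1 (3.15 ± 0.688). Spry4, which had the largest fitted fold change, was thus among the lowest of the 10 in level per length.

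**Figure D4:**
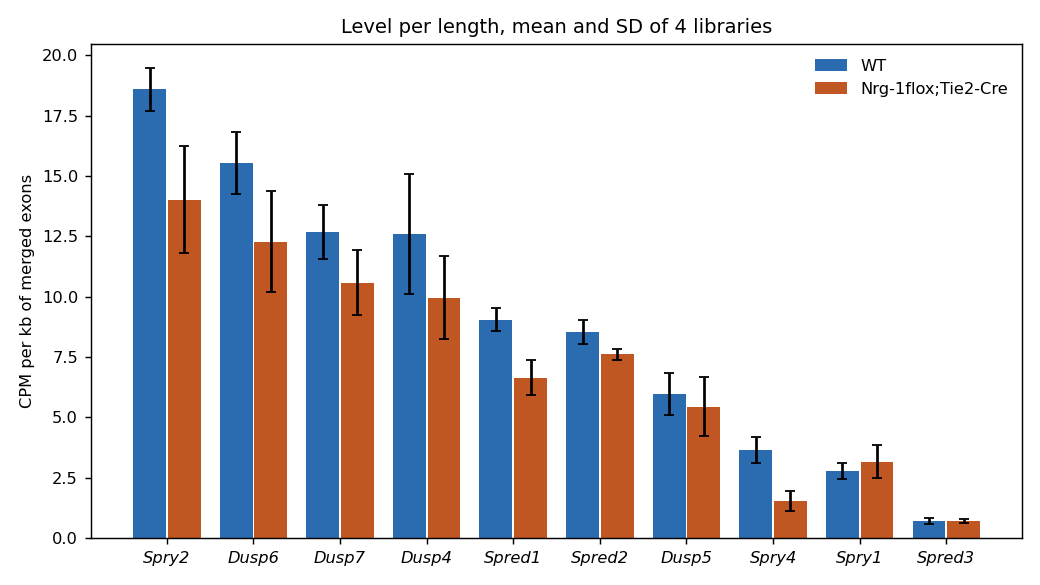
Mean level per length (CPM per kilobase of merged exons, linear axis from 0) of each gene in WT and Nrg-1flox;Tie2-Cre ventricles, with SD of 4 libraries, in the WT order. Spry2 leads at 18.6 in WT, and Spry4 and Spry1 change places in the mutant.

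The rest of the pathway was described with lists of its other genes. None of 13 receptors and adaptors and none of 14 genes of the Ras-ERK core passed the test in edgeR, with median log2 fold changes of -0.11 and -0.0060. The counts at an unadjusted p under 0.05 were 5 and 4, those in DESeq2 were 0 and 1, and those without mutant replicate 1 were 2 and 4 in edgeR. Of all genes tested, 12.8% were called in DESeq2 and 17.2% in edgeR without mutant replicate 1, against which the counts of these and the following lists can be read. Erbb4, named here after its values were seen as the receptor through which myocardium senses neuregulin-1, had a log2 fold change of -0.23 (SE 0.13, edgeR adjusted p = 0.321), and -0.37 without mutant replicate 1 (adjusted p = 0.018). Erbb2, its co-receptor, had 0.18 (SE 0.12, edgeR adjusted p = 0.383), and 0.29 without that library (adjusted p = 0.0138). Of 6 Ras GTPase-activating proteins, Rasa3 was lower (log2 fold change -0.27, SE 0.068, edgeR adjusted p = 0.0404) and 5 did not pass, with a median of -0.21. Of the 6, 5 passed without mutant replicate 1 and 3 in DESeq2. Of 8 other feedback inhibitors, Cbl, a ubiquitin ligase that marks receptors for removal, was lower (-0.25, SE 0.062, edgeR adjusted p = 0.0357) and 7 did not pass. Without mutant replicate 1, 4 of the 8 passed, and 2 did in DESeq2. Il17rd, also known as Sef, had -0.36 (SE 0.12, edgeR adjusted p = 0.0977), and -0.44 without mutant replicate 1 (adjusted p = 0.0241). The calls of Rasa3 and Cbl were lost with no low-count filter (edgeR adjusted p = 0.0549 and 0.0571), with the Y-linked covariate (0.113 and 0.0934) and in 6 and 7 of the 8 fits that left out a library (all but those without mutant replicate 1 or 4 for Rasa3, and all but that without mutant replicate 1 for Cbl).

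Among other members of the same families, Dusp1 and Dusp8 were higher. Of the 7 tested, the other 5 did not pass, with a median log2 fold change of 0.079 over the list. Dusp1, an immediate-early gene whose product acts on stress-activated MAP kinases as well as ERK, was 28.6 ± 3.02 CPM in the mutant and 19.2 ± 1.40 CPM in WT (log2 fold change 0.57, SE 0.093, edgeR adjusted p = 0.00592). Dusp8, which acts on stress-activated MAP kinases, was 21.1 ± 3.19 against 12.4 ± 1.84 CPM (0.76, SE 0.14, edgeR adjusted p = 0.00949). Both also passed without mutant replicate 1, at 0.50 and 0.65. Dusp9, the remaining cytoplasmic ERK phosphatase, named here after its values were seen, was 37.9 ± 8.22 and 41.7 ± 2.32 CPM and did not pass.

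Of 14 ERK-responsive genes tested, 4 were lower and 1 was higher. Etv5 was 28.6 ± 2.41 CPM in the mutant and 49.2 ± 5.11 CPM in WT (-0.78, SE 0.089, edgeR adjusted p = 0.0018), and Etv4 was 6.38 ± 1.09 and 12.003 ± 1.37 CPM (-0.91, SE 0.15, edgeR adjusted p = 0.00575). Both are ETS transcription factors induced by receptor tyrosine kinases, as is Etv1 (-0.62, edgeR adjusted p = 0.0383). The call of Etv1 was lost in 7 of the 8 fits that left out a library, all but that without mutant replicate 1. Its log2 fold changes over the 8 fits ran from -0.78 to -0.53. The call was also lost with the Y-linked covariate, where the log2 fold change was -0.64 (edgeR adjusted p = 0.0791). Epha4, an ephrin receptor, was also lower (-0.52, edgeR adjusted p = 0.0144), a call lost without WT replicate 3 (edgeR adjusted p = 0.0516). Myc was higher, 47.3 ± 9.18 against 20.4 ± 0.509 CPM (1.21, edgeR adjusted p = 0.00162). Without mutant replicate 1, Etv5 was at -0.75, Etv4 at -0.92, Etv1 at -0.78, Epha4 at -0.61 and Myc at 1.11, and 7 of the list passed, as 7 did in DESeq2. The median of the list was 0.0011 with all 8 libraries. Junb had a log2 fold change of 1.08 (SE 0.35, edgeR adjusted p = 0.0899), and 0.58 without it (adjusted p = 0.0467), and Ier3 had 2.14 (SE 0.70, edgeR adjusted p = 0.0925), and 0.85 without it (adjusted p = 0.0658). Egr1, named here after its values were seen, had 24.2 CPM in mutant replicate 1, against a lowest mutant value of 4.10 CPM and 9.06 to 12.3 CPM in WT, and its log2 fold change went from -0.051 to -0.90 (edgeR adjusted p = 0.0128) without that library.

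**Figure D5:**
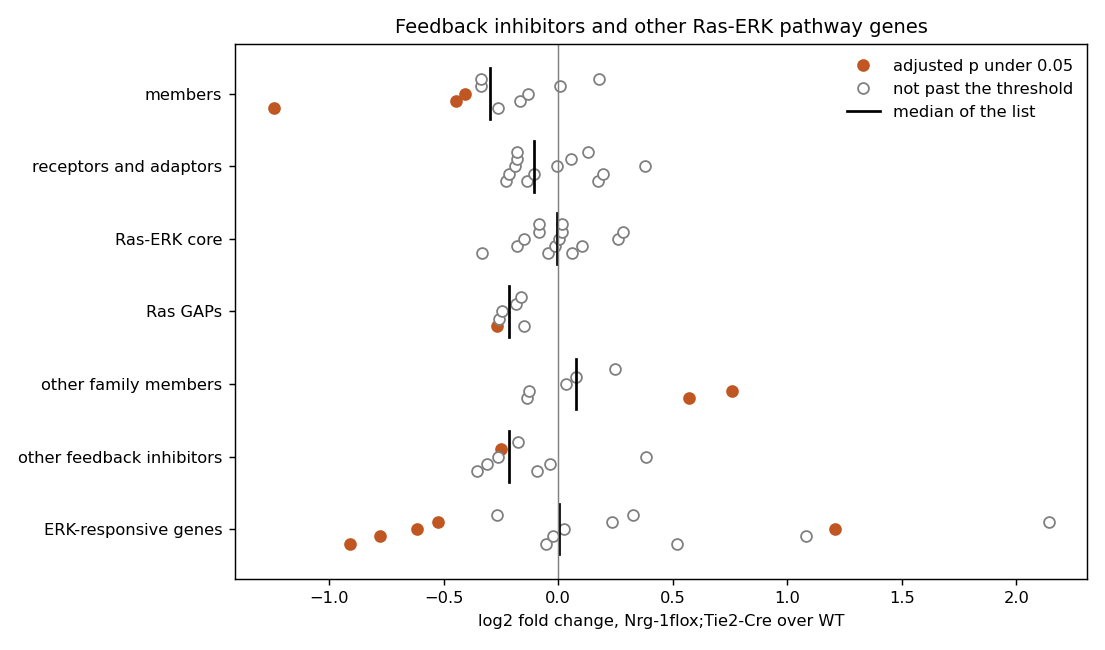
Log2 fold change, Nrg-1flox;Tie2-Cre over WT, of the 10 genes described here and of the genes tested from 6 lists of other pathway genes, with filled points for an adjusted p under 0.05 (edgeR quasi-likelihood test) and a bar at the median of each list. The 10 genes have a median of -0.30, the Ras-ERK core -0.0060.

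Some markers of other cells differed between the genotypes. The summed level of 10 endocardial and endothelial markers was 1025 to 1106 CPM in WT and 892 to 978 CPM in the mutant, with 1 of the 10, Tek, lower (log2 fold change -0.34, edgeR adjusted p = 0.031). None of the 10 passed in the 6 fits that left out mutant replicate 3 or 4 or a WT library, and 3 passed without mutant replicate 1, where Tek was -0.28. The 8 epicardial and proepicardial markers summed to 766 to 923 CPM in WT and 906 to 1120 CPM in the mutant, with Wt1 and Tbx18 higher. Tbx18 did not pass when any 1 of the WT libraries was left out, Wt1 did, and 4 of the 8 passed without mutant replicate 1. Of 7 atrial and outflow genes tested, Fgf10, Sema3c and Rspo3 were lower (Fgf10 not without WT replicate 4, edgeR adjusted p = 0.0542), with sums of 146 to 175 CPM in WT and 99.2 to 153 CPM in the mutant. The 8 neural, paraxial and foregut markers summed to at most 5.67 CPM in a library, of which 1 was tested and did not pass. The 6 leukocyte and macrophage markers summed to 5.18 to 5.52 CPM in WT and 8.49 to 15.4 CPM in the mutant, highest in replicate 1, and of 2 tested Csf1r was higher (1.08, edgeR adjusted p = 0.00657). The part of these cell populations in the levels of Spry4, Spry2 and Spred1 was not tested. Leaving hemoglobin and mitochondrial genes out of the fit mainly rescales the other genes, so it cannot measure the part of blood RNA. In that fit 3 of the 10 genes passed, Spry4 at -1.23, Spred1 at -0.44 and Spry2 at -0.40. Of all genes tested, 8.66% were called there.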

How the data were processed

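Polyadenylated RNA of heart ventricles was sequenced in single reads of 60 bases, and the authors deposited expected counts per gene, which per the labels came from cutadapt and RSEM 1.3.1 on GRCm38. Aligner and strand setting are not given in the sources used here. Expected counts were rounded to whole numbers (8 of the 80 values printed were not whole within 0.005). edgeR 4.0.16 in R 4.3.3 was run with TMM scaling, filterByExpr, a quasi-likelihood test and Benjamini-Hochberg adjustment over 14451 genes. CPM are TMM-normalized. The SE was obtained by dividing the log2 value by the root of F. The 12 paralog ratios (prior count 2) were compared with exact permutation tests (two-sided, 70 relabellings). Besides the 10 genes and Nrg1, the rule allowed naming called genes of the lists and up to 4 others of each by smallest p. Egr1, Erbb2, Erbb4 and Dusp9 fall outside it. Membership is by name, but the families and lists were proposed with earlier results of these data known. Replicates differed by more than counting noise (chi-square over degrees of freedom at least 3.77). Alternatives were DESeq2 1.42.0, limma 3.58.1, other scalings, filters and covariates, and each library left out. Scripts were tested on simulated data. Exon overlaps and lengths are from GENCODE M21, promoters from RefSeq.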

Additional observations from a re-analysis of the deposited data

Results flagged for a closer look

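Within genotypes of 4 libraries, 4 of 56 sets of values had 1 library far from the others, by a gap over the range above Dixon's 95% critical value, which chance passes in about 1 in 20. Mutant replicate 1 was the highest in 3 of them. Spry2 was at 36.1 CPM there against 26.3 to 27.5 CPM in the other mutant libraries (gap over range 0.871), the summed Sprouty level at 57.9 against 41.0 to 42.1 CPM (0.93), and the summed level of all 10 genes at 279 against 231 to 236 CPM (0.911). The sums hold Spry2 and are not separate observations. In WT replicate 2 the log2 ratio of Spred2 to Spred3 was 3.49, against 3.03 to 3.06 in the other WT libraries (0.923), where Spred3 had its lowest level of all 8 libraries, 3.30 CPM.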

How the results depend on the processing

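Spry4 and Spred1 were lower in the mutant in all 10 alternatives and all 8 fits without 1 library, and Spry2 passed in 8 of 10 and 1 of 8. With 1 library left out, 2 to 5 of the 10 genes and 20 to 48 pathway and marker genes passed, of 509 to 2523 genes in all (174 to 1155 lower, 335 to 1368 higher). The log2 fold change then ran from -0.52 to -0.35 for Spry2, -0.20 to -0.14 for Spred2, -0.10 to 0.083 for Spred3, -0.45 to -0.27 for Dusp6, 0.039 to 0.28 for Spry1, -0.44 to -0.20 for Dusp4, -0.29 to -0.040 for Dusp5, -0.33 to -0.19 for Dusp7 and -0.90 to 0.22 for Egr1. Replicate numbers did not pair the libraries (same-number correlations from -0.091 to 0.019, and 0 of 4 mutant libraries correlated best with their own number), and a replicate block called 616 genes (218 lower, 398 higher) with Spry2 at -0.42. Rasa3, Cbl, Etv1 and Epha4 lost their calls there too (edgeR adjusted p from 0.051 to 0.127). With a Y-linked covariate, 604 genes passed (213 lower, 391 higher) and Spry2 was -0.45. With upper-quartile scaling Spred3 was -0.0097. With limma-voom and sample quality weights, chosen after seeing the data, mutant replicate 1 had a weight of 0.163, 3062 genes passed (1414 lower, 1648 higher), 51 of them pathway and marker genes, and Spry1 was -0.013, Spred3 -0.061 and Dusp6 -0.48, which passed. DESeq2 called 1780 genes. The cause of these differences was not tested. Under 4 other scalings and prior counts, 0 paralog pairs passed. With 1 library left out, 0 pairs passed either (2 to 5 at the smallest exact permutation p of 0.0286), and shifts ran from -0.24 to -0.071 for Spred2/Spred3, -0.28 to -0.13 for Dusp4/Dusp5, 0.14 to 0.26 for Dusp5/Dusp6, -0.077 to 0.11 for Dusp4/Dusp6, -0.25 to 0.066 for Dusp4/Dusp7, -0.099 to 0.27 for Dusp5/Dusp7 and -0.26 to 0.048 for Dusp6/Dusp7. Sign flips within numbers cannot give a p under 0.125. Counts were lowest for Spred3, at 45 to 70 per library.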
